A study of Homo sapiens with 2 samples.

Results

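The LDB1 peaks at 10 genes of iron uptake, storage and export were examined in NB4 cells, an established line from a human acute promyelocytic leukemia. The genes were TFRC, TFR2, SLC11A2, SLC40A1, FTH1, FTL, HMOX1, STEAP3, ABCB10 and IREB2, grouped by their function in iron handling and chosen with earlier results of this library known. A peak was counted for a gene when it overlapped the GENCODE release 44 gene body, extended by 10 kb on each side, by at least 1 bp. By this rule 17 of the 11046 peaks of the library fell at the 10 genes, out of 20033 protein-coding genes. No window touched that of another of these genes.

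The study performed CUT&Tag, in which an antibody guides a transposase that cuts and tags the DNA beside the bound protein. The series held 2 libraries of NB4 cells. The library made with the LDB1 antibody is labelled as LDB1 overexpression, and the library made with IgG as untreated, so that antibody and treatment cannot be told apart. With 1 library per group there was no replicate and no test between groups. The values were the authors' peaks for the LDB1 library, each given by its coordinates and size without any height, and the depth is unknown. Intervals below are 95% Wilson intervals over genes or peaks of this 1 library, and neighbouring peaks are not independent.

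Cells take up iron bound to transferrin through transferrin receptors, reduce it in endosomes and move it to the cytosol. What is not used is stored in ferritin or exported through ferroportin, and developing red cells send most of it to mitochondria for heme. Iron regulatory proteins bind hairpins in the mRNAs of several of these genes and so control them after transcription. LDB1 is a co-regulator without a DNA-binding domain of its own. With LMO2 it joins GATA and TAL1 factors on DNA, a complex best known in red cell and stem cell genes.

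Results showed that 8 of the 10 genes had at least 1 LDB1 peak (80.0%, interval 49.0 to 94.3%), compared with 25.1% of all protein-coding genes. FTL had 4 peaks, TFR2 and ABCB10 had 3 each, TFRC and FTH1 had 2 each, and SLC11A2, SLC40A1 and STEAP3 had 1 each. HMOX1 and IREB2 had none. Thus 3 of the 10 genes had 3 or more peaks (30%), compared with 5.64% of all protein-coding genes. At each of these 3 genes some neighbouring peaks lay close together, 977 bp apart at TFR2, 774 bp at FTL and 718 bp at ABCB10. With peaks less than 1 kb apart merged, each of these 3 genes had fewer peaks, and the 10 windows held 14. Counts per gene, and the shares below with at least as many peaks, therefore depend on how peaks were split. Those shares were not counted on merged peaks. The peaks covered 12766 of the 535655 bp of the 10 windows (2.38%), compared with 0.289% of the windows of all protein-coding genes. Because of how the genes were chosen, the shares describe them and are no test.

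**Figure D1:**
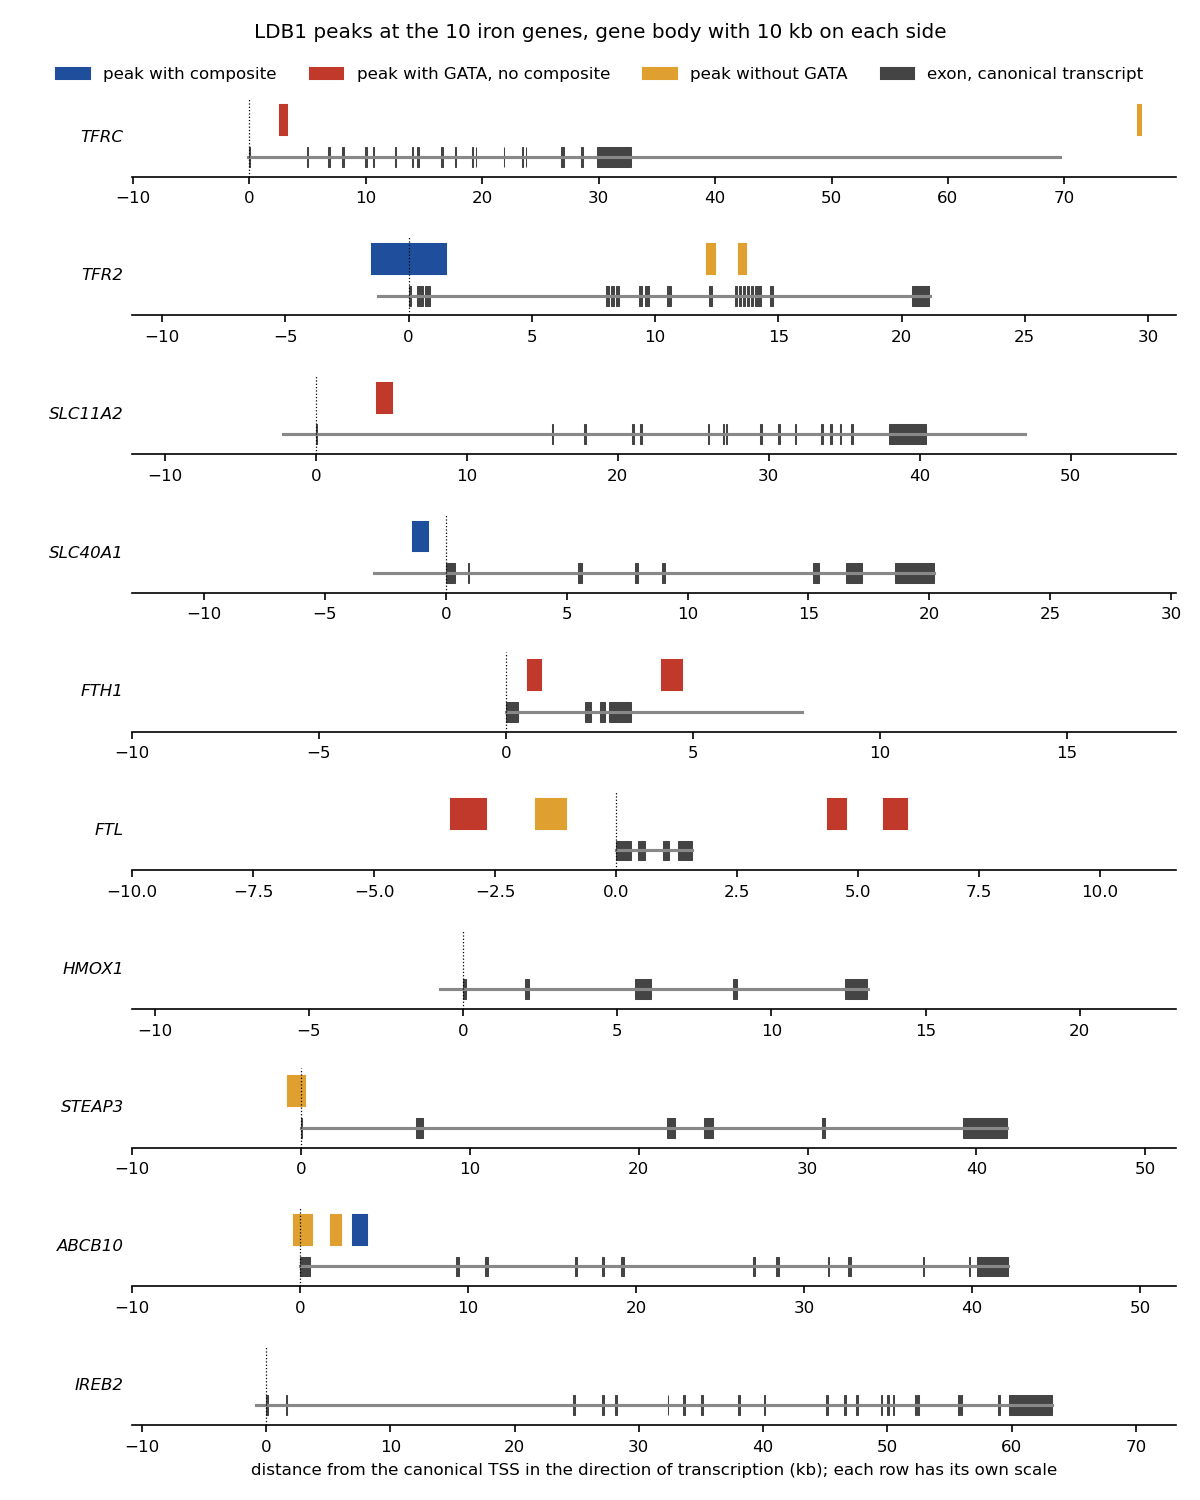
LDB1 peaks at the 10 iron genes, plotted by distance in kb from the canonical transcription start site (TSS, dotted line) in the direction of transcription, with the gene body as a grey line, its canonical exons as dark boxes and the window running 10 kb past each end, each row on its own scale. Peaks are blue with a composite of E-box remnant and GATA, red with GATA but no composite and yellow without GATA, and HMOX1 and IREB2 have none.

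The sequences that follow show where the known recognition letters of the complex sat in these peaks. The composite is CTG, then 7 or 8 bases, then a GATA motif (AGATAA or AGATAG or TGATAA or TGATAG), read on both strands. Over whole peaks it was present in 3 of the 17 (17.6%), compared with 22.4% of all peaks, so it was not more frequent here. These peaks lay at 3 of the 10 genes, TFR2, SLC40A1 and ABCB10, with 4 matches in all. Each is printed 5′ to 3′ on the strand of the motif from hg38, with CTG and the GATA motif in capitals. The TFR2 run (chr7:100641585-100641614, minus strand) is shorter since it lies in an annotated exon. The SLC40A1 run is chr2:189582082-189582138 on the plus strand. The ABCB10 runs are chr1:229554983-229555038 and chr1:229555227-229555283 on the minus strand, of which the second was added after the values were seen.
TFR2: aggctgcCTGccaggacTGATAAggggccc
SLC40A1: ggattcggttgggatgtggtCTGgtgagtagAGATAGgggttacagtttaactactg
ABCB10: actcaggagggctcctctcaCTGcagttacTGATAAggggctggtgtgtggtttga
ABCB10, nearer to the TSS: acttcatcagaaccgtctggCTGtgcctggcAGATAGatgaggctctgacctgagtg

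In the TFR2 run and the first ABCB10 run the parts are 7 bases apart and end in TGATAA. In the SLC40A1 run and the other ABCB10 run they are 8 bases apart and end in AGATAG.

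TFRC encodes transferrin receptor 1, the main entry of transferrin iron into dividing cells. It had 2 peaks. The longer (601 bp, chromosome 3, 196078824 to 196079424) lay in intron 1, with its midpoint 2966 bp downstream of the canonical TSS. It held 2 GATA matches and no composite, and the match nearest to the midpoint was 19.5 bp from it. The other (268 bp, 196005495 to 196005762) lay 76462 bp downstream of the TSS, beyond the gene. It was in the window only because the annotated gene body reaches far past the canonical transcript. It held no GATA match, was shorter than all but 13.5% of the peaks, and the 31 bases at its midpoint were found 5 times in hg38. Whether whole reads of this peak also map elsewhere was not tested. It was the only 1 of the 17 peaks (5.88%) whose central 31 bases were found more than once, compared with 10.7% of all peaks.

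TFR2 encodes transferrin receptor 2, a receptor of liver and erythroid cells that takes part in sensing iron. It carried the longest peak of the 10 genes (3004 bp, chromosome 7, 100640027 to 100643030), the 31st longest of all 11046. The peak covered the canonical TSS, with its midpoint 24 bp downstream of it, and the composite printed above lay 47.5 bp upstream of the TSS. Over its whole length it held 23 matches of the KLF motif CCNCNCCC, some of them overlapping, and none lay in the 200 bp at its midpoint. That count has no background, since the KLF motif was counted over all peaks only in the 200 bp at the midpoint. The remaining TFR2 peaks were short, at 338 bp centred in coding exon 10 (100629120 to 100629457) and 293 bp centred in intron 12 (100627850 to 100628142), with no GATA match. Of 4377 protein-coding genes with a window of similar size (the shorter of both windows at least 0.8 times the longer), 4.55% had at least as many peaks.

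SLC11A2 encodes DMT1, the transporter that carries ferrous iron out of the endosome. Its single peak (962 bp, chromosome 12, 51021365 to 51022326) was longer than 88.5% of all peaks. It lay in intron 1, 4539 bp downstream of the canonical TSS and 2998 bp from the nearest TSS of another transcript of the gene. It held 4 GATA matches, the highest number in a peak of the 10 genes, and no composite. The nearest GATA match was 6.5 bp from the midpoint.

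STEAP3 encodes the endosomal reductase that turns ferric into ferrous iron in erythroid cells. Its single peak (1035 bp, chromosome 2, 119223055 to 119224089) covered the TSS and was longer than 90.3% of all peaks. It held no GATA match and no composite over its whole length. Its GC content was 69.6%, and an ETS match lay in the 200 bp at its midpoint.

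FTH1 and FTL encode the heavy and light chains of ferritin, the iron store of the cytosol. FTH1 had a peak of 345 bp in intron 1 (chromosome 11, 61966705 to 61967049), 757 bp downstream of the TSS, and a peak of 548 bp (61962923 to 61963470), 4438 bp downstream of it and past the end of the canonical transcript. They held 2 and 1 GATA matches in that order, and no composite. Of protein-coding genes with a window of similar size, 7.17% had at least 2 peaks. The 4 peaks of FTL lay outside the gene body, and none overlapped its exons. Upstream were peaks of 733 bp (48961900 to 48962632) and 611 bp (48963661 to 48964271), with midpoints 3043 and 1343 bp before the TSS. Downstream were peaks of 366 bp (48969699 to 48970064) and 486 bp (48970839 to 48971324). They spanned 9425 bp of chromosome 19 from the first to the last. Both downstream peaks were nearest to the TSS of GYS1, which encodes muscle glycogen synthase, at 828 and 372 bp. The upstream peaks were nearest to the TSS of a long noncoding RNA gene (ENSG00000267898), at 1709 and 9 bp. Thus none of the 4 FTL peaks had the TSS of FTL as its nearest, although among protein-coding genes FTL was nearest to the upstream pair. Of 3758 protein-coding genes with a window of similar size, 0.718% had 4 or more peaks.

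GATA matches near a midpoint are shown for the 3 genes that had them there without a composite, chosen after the values were seen, in hg38 with the motif in capitals. They are TFRC at chr3:196079121-196079166 (minus strand), SLC11A2 at chr12:51021816-51021861 (plus strand) and FTH1 at chr11:61963208-61963237 (minus strand, shortened since it lies in an annotated exon). The last run is from the FTL peak 1343 bp upstream of the TSS, at chr19:48963922-48963970 (plus strand), which held no GATA match. Its capitals mark an AP-1 match (TGACTCA) that overlaps a match of the antioxidant element (TGACNNNGC), a motif of NRF2, BACH and NFE2 factors paired with small MAF proteins.
TFRC: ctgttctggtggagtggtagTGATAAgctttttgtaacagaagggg
SLC11A2: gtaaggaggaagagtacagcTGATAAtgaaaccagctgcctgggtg
FTH1: agttggggccagTGATAAcatctgctcagc
FTL: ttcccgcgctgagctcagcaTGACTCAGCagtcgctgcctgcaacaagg

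The FTL stretch lay 20 bp from the midpoint of its peak. It was the only one of the 17 peaks with either motif in its central 200 bp. Across all peaks, 9.50% held the AP-1 motif and 11.3% the antioxidant element there, so 1 of 17 (5.88%) was not above the background for either.

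SLC40A1 encodes ferroportin, the known exporter of iron from cells. Its single peak (627 bp, chromosome 2, 189581531 to 189582157) was centred 1058 bp before the canonical TSS and 178 bp from the TSS of another transcript of the gene. The composite lay 266.0 bp from the midpoint, outside the central 200 bp, and a second GATA match lay inside them.

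ABCB10 encodes a mitochondrial transporter of red cell precursors that interacts with the iron importer mitoferrin. Its 3 peaks stood in a row over 4363 bp of chromosome 1. The first in the direction of transcription (1116 bp, 229557970 to 229559085) covered the TSS. The next (628 bp, 229556246 to 229556873) and the last (805 bp, 229554723 to 229555527) lay in intron 1, 2148 and 3582 bp downstream of the TSS. Only the last held GATA matches, 3 of them, and 2 of these belonged to composites, 114.5 and 130.0 bp from the midpoint on opposite sides. The window of ABCB10 held 2 composite matches in all, so both lay in this 1 peak. At least 3 peaks were found at 6.15% of protein-coding genes with a window of similar size. For TFRC the share with at least as many peaks was 11.6%. For SLC11A2, SLC40A1 and STEAP3, with 1 peak each, it was 26.7%, 24.6% and 26.5%, so a single peak was common at such window sizes.

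HMOX1, which encodes the enzyme that breaks down heme and frees its iron, and IREB2, which encodes iron regulatory protein 2, had no peak in their windows (genes at chromosome 22, 35380361 to 35394214, and chromosome 15, 78437431 to 78501453). The nearest peak was 127328 bp from HMOX1 and 160572 bp from IREB2. The HMOX1 window of 33854 bp held 1 composite and 42 GATA matches, and the IREB2 window of 84023 bp held 6 and 200. All protein-coding windows held 3464159 GATA matches in 1513242490 bp, and 0.319% of these matches lay in a peak. Whether the number of matches bears on the lack of a peak was not tested. Among protein-coding genes with windows of similar size, 22.8% for HMOX1 and 28.0% for IREB2 had a peak. A list without heights does not show whether there was weaker signal at these genes.

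To compare the size of the peaks, their lengths were set against those of the whole list. The median length of the 17 peaks was 611 bp (order-statistic interval 366 to 805 bp), with a range from 268 to 3004 bp, and that of all peaks was 451 bp. Of the 17 peaks 12 were longer than this median and 6 were longer than the upper quartile of 666 bp. The interval contained the median of all peaks, so a difference in length was not shown at this number of peaks.

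**Figure D2:**
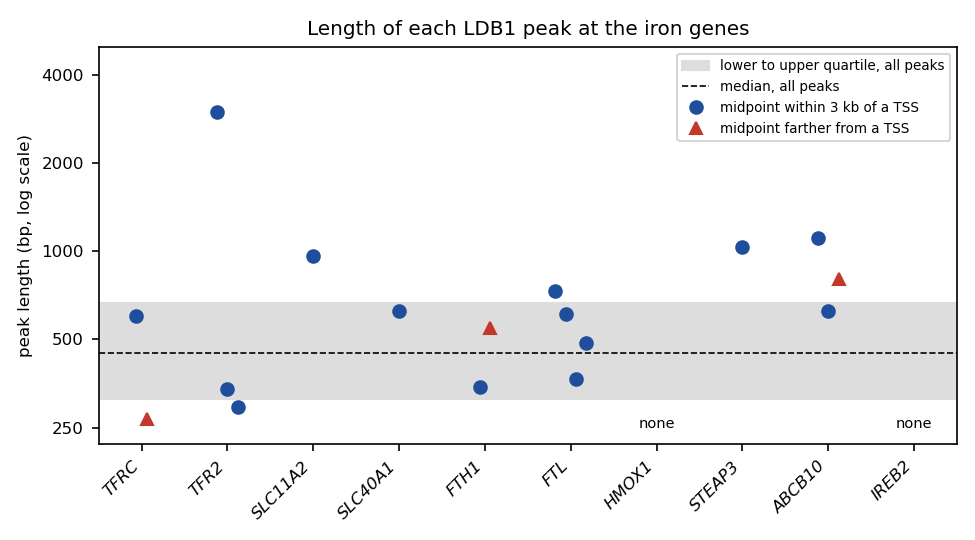
Length in bp (log axis) of each of the 17 LDB1 peaks by gene, with circles for peaks whose midpoint is within 3 kb of a TSS and triangles for the others, over the quartile range (314 to 666 bp) and the median (451 bp) of all peaks. The TFR2 promoter peak of 3004 bp stands above all others, and HMOX1 and IREB2 have none.

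The position of the peaks was then compared with transcription starts. For 14 of the 17 peaks (82.4%, interval 59.0 to 93.8%) the midpoint was within 3 kb of the TSS of an annotated transcript, compared with 35.6% of all peaks. For 8 of the 17 it was within 3 kb of the canonical TSS of the iron gene itself. The rest of the 14 counted through other transcripts of TFR2 and SLC11A2 or, at FTL, through other genes. Since peaks at genes lie nearer to a TSS by the way they are counted, all peaks in the windows of protein-coding genes were taken as a second background, added after the values were seen, and 42.4% of them were near a TSS. Within 1 kb the share was 52.9%, compared with 19.4% of all peaks. Of the 10 genes 7 (70.0%, interval 39.7 to 89.2%) had a peak centred within 3 kb of their own canonical TSS, compared with 6.19% of all protein-coding genes. These were TFRC, TFR2, SLC40A1, FTH1, FTL, STEAP3 and ABCB10. At the 9 heme synthesis enzymes, compared below, 21 of 22 peaks (95.5%) were near a TSS, and 7 enzymes (77.8%) had a peak at their own. At the 38 wider iron genes it was 17 of 29 peaks (58.6%) and 7 genes (18.4%). Nearness to a TSS was thus not particular to the 10 iron genes. Among the 10 iron genes, only the peaks of TFR2, STEAP3 and ABCB10 covered the canonical TSS, and their GC content was 61.7 to 77.7%. The median was 51.4% over all peaks and 54.0% over all peaks near a TSS. Peaks near a TSS need not cover one, so neither background is matched to these 3 peaks. Over the 17 peaks the median GC content was 57.7%. By place, 6 of the midpoints lay in introns of the gene, 5 of them in intron 1, and 3 lay in exons. A further 4 lay upstream of the canonical transcript and 4 downstream of it. No share over all peaks is at hand for these places or for peaks that cover a TSS, so these counts only describe the 17 peaks.

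The recognition motifs were counted in the 200 bp centred on each midpoint. The GATA motif was found in 6 of the 17 peaks (35.3%, interval 17.3 to 58.7%), compared with 47.1% of all peaks and 42.2% of all peaks near a TSS. The composite was found in 1 of 17 (5.88%, interval 1.05 to 27.0%), compared with 11.2% of all peaks. Thus neither was more frequent at the iron genes than in the list as a whole. Over the whole length of the peaks, 10 of the 17 held GATA (58.8%) and 3 held the composite (17.6%), compared with 71.4% and 22.4% of all peaks. The 7 peaks with no GATA match anywhere included those at the TSS of STEAP3 and ABCB10.

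**Figure D3:**
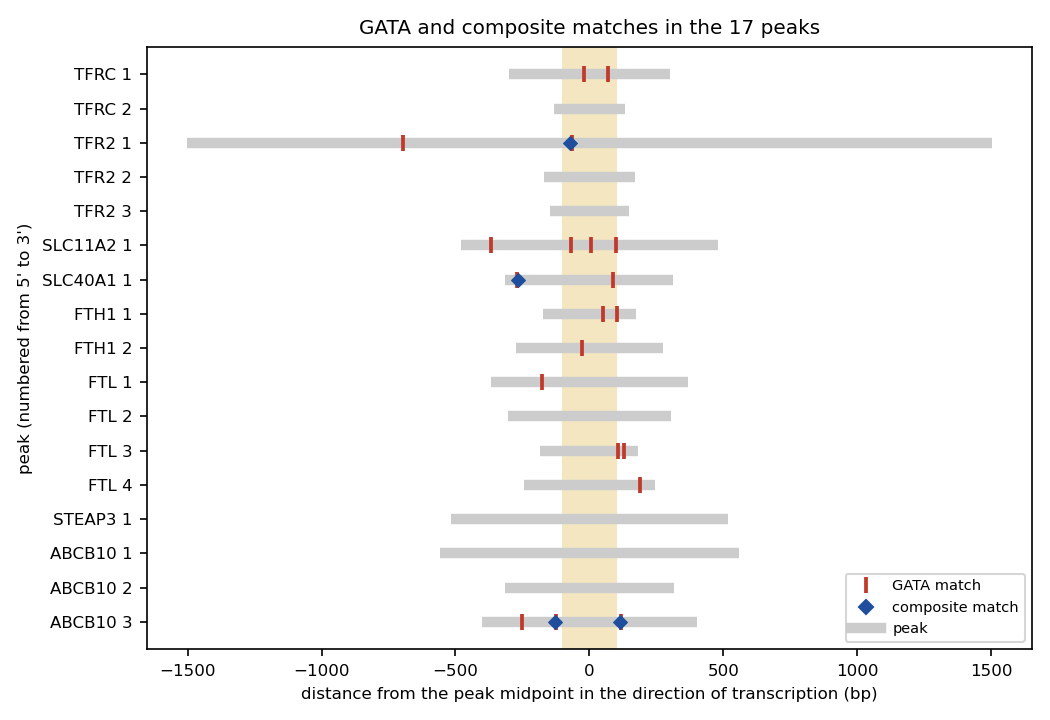
The 17 peaks (grey bars, to scale, numbered from 5′ to 3′ at each gene) with their GATA matches (red ticks) and composite matches (blue diamonds), by distance in bp from the peak midpoint in the direction of transcription, with the central 200 bp shaded. GATA matches fall in 10 peaks, and 1 composite, at TFR2, falls in the shaded window.

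The KLF motif (CCNCNCCC), a GC-rich box read by KLF1 and related factors, was found in 9 of the 17 peaks (52.9%, interval 31 to 73.8%), compared with 32.0% of all peaks and 39.2% of those near a TSS. The E-box CAGNTG, which TAL1 and its partners read, was found in 7 (41.2%), compared with 51.5% of all peaks. The MYC box CACGTG was found in 2 (11.8%), at FTL and ABCB10, compared with 3.41%. The motifs of RUNX (TGTGGT or TGCGGT), ETS (CNGGAAGT) and CEBP (TTGCNNAA) were found in 1 peak each (5.88%), compared with 20.5%, 3.84% and 7.47% of all peaks. Each of these backgrounds lay inside the interval of the share at the iron genes, and those for KLF and the MYC box (lower bound 3.29%) lay only just above its lower bound. All motifs were read on both strands, and each composite match also counts as a GATA match.

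**Figure D4:**
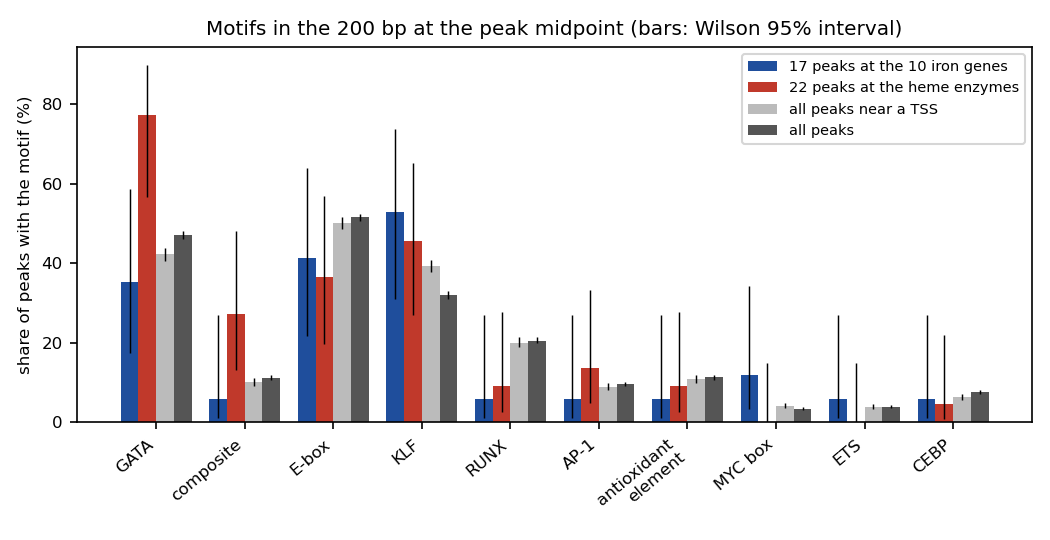
Share of peaks with each motif in the 200 bp at the midpoint, in percent, for the 17 peaks at the iron genes (blue), the 22 peaks at the heme synthesis enzymes (red), all peaks near a TSS (light grey) and all 11046 peaks (dark grey), with Wilson 95% intervals as lines. The GATA share is 35.3% at the iron genes and 77.3% at the heme enzymes, with 47.1% in all peaks.

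The comparison was also read from the sequence. The 10 windows held 29 composite matches, and 4 of them (13.8%, interval 5.50 to 30.6%) lay in a peak. In the genome as a whole, 1.21% of 224764 composite matches did so, and in the windows of all protein-coding genes 1.59%. The share at the iron genes was 7.55% with 25 kb on each side and 6.85% when 6 to 9 bases were allowed between the parts. Of the 960 GATA matches in the 10 windows 20 lay in a peak (2.08%, interval 1.35 to 3.20%), compared with 0.319% in all protein-coding windows. These shares have to be read beside the bases covered, since peaks took up 2.38% of the 10 windows and 0.289% of all protein-coding windows. GATA matches lay in peaks about as often as bases did, and composite matches more often, both at the iron genes and in all protein-coding windows, so neither is particular to the iron genes. Of the 29 composite matches 25 lay outside a peak, 6 of them at TFRC and 6 at IREB2, the genes with the largest windows.

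The other genes of iron handling were taken from a list of 38. Of these 12 (31.6%, interval 19.1 to 47.5%) had a peak, an interval that includes the 25.1% of all protein-coding genes. Those with 3 or more peaks were TF, NCOA4, SLC25A37, BLVRA and FLVCR1. SLC25A37 encodes mitoferrin 1, a mitochondrial iron importer of red cell precursors, and NCOA4 the receptor that delivers ferritin to lysosomes, and each had 5 peaks. The longest at SLC25A37 (1405 bp) was centred 576 bp before the TSS and held 5 GATA matches. At NCOA4, 3 of the 5 peaks lay outside the gene body. TF encodes transferrin, BLVRA biliverdin reductase A and FLVCR1 a protein linked to heme export, and each had 3. Of these, only TF and NCOA4 held composite matches in a peak. Hepcidin (HAMP), its regulators HJV, HFE, BMP6 and TMPRSS6, and the iron regulatory gene ACO1 were among the 26 without a peak.

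The enzymes of heme synthesis, which use the iron, were compared next. Of 9 enzymes 8 (88.9%, interval 56.5 to 98.0%) had a peak, among them ALAS2, the erythroid form of the first enzyme, and FECH, which inserts iron into the ring. ALAS1, the form of the first enzyme made in all tissues, had none. The intervals of the share of genes with a peak overlapped widely between the iron genes and the heme enzymes. GATA was found in the central 200 bp of 17 of the 22 heme enzyme peaks (77.3%, interval 56.6 to 89.9%) and in 6 of the 17 iron gene peaks (35.3%, interval 17.3 to 58.7%), and these intervals overlapped narrowly. Of the composite matches in the heme enzyme windows, 12 of 32 (37.5%, interval 22.9 to 54.7%) lay in a peak, compared with 4 of 29 at the iron genes, while peaks covered 4.35% of the heme enzyme windows and 2.38% of the iron gene windows. The difference between the lists was not tested.

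**Figure D5:**
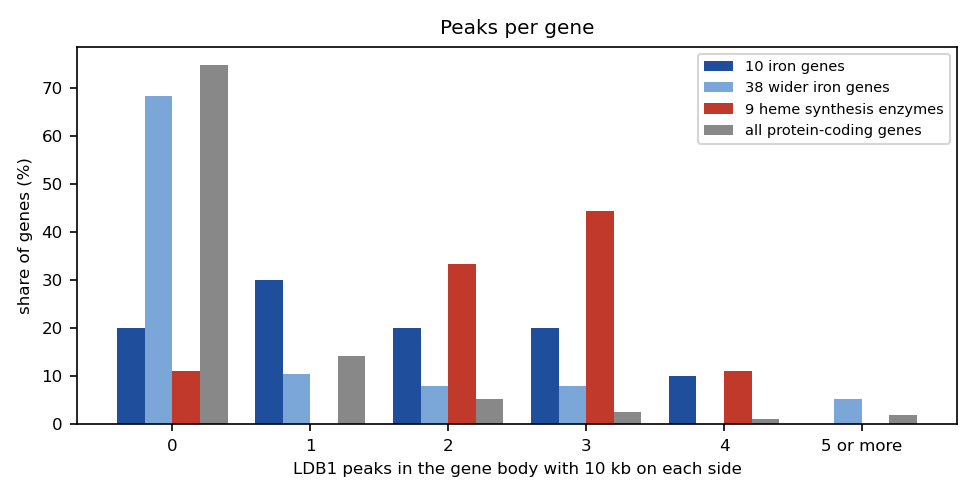
Share of genes in percent by the number of LDB1 peaks in the gene body with 10 kb on each side, for the 10 iron genes, 38 wider iron genes, 9 heme synthesis enzymes and all 20033 protein-coding genes. Genes without a peak are 2 of 10, 26 of 38, 1 of 9 and 15002 of 20033 in that order.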

How the data were processed

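CUT&Tag libraries of NB4 cells were made by the authors with an LDB1 antibody and with IgG, 1 each. The submitters' processing notes and the authors' methods name Bowtie2 2.4.4 for alignment (hg38) and MACS3 3.0 in paired-end mode for peak calling, at a q-value limit of 0.01. Whether the IgG library served as control, and whether duplicates were removed, is not stated. The file deposited by the authors lists coordinates (counted from 1) and size in bp for every LDB1 peak. There was no score or summit, so the midpoint stood for the summit and length for size. Depth is unknown. The IgG library is not analysed here.

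Genes came from GENCODE release 44 and sequence from hg38. Midpoints were compared with the TSS of every annotated transcript, and distances to a gene used its Ensembl canonical transcript. Motifs were searched as letters on both strands. Intervals are Wilson 95% intervals and cover counting error only. Python 3.11.15, numpy 2.4.6, pandas 2.3.3 and SciPy 1.17.1 were used. Counting and motif search were tested on simulated data. The genes, lists and motifs were chosen with earlier results of these data known. Genes named were all 10 iron genes, wider iron genes with 3 or more peaks, some without a peak (chosen after seeing the values), some of the heme enzymes with a peak (not every one is reported here by name), and genes whose TSS was nearest to a peak. Peaks near a TSS and peaks in protein-coding windows were added as backgrounds after the values were seen. Alternatives were other windows, stricter peak lists, merged peaks, other TSS and motif windows and wider composite spacing.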

Additional observations from a re-analysis of the deposited data

How the results depend on the processing

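No paired analysis was possible because there was only 1 library on each side. A stricter limit on the peak score could not be tried, since the list has no score, and the 5523 longest peaks took its place. Of 58 values of 9 results under the alternatives, 54 stayed within the interval of the value reported, or within 1.5 times for the number of peaks, and 4 did not. The median length was 848 bp with peaks less than 1 kb apart merged (483 bp over the whole merged list). The share near a TSS was 52.9% within 1 kb. The GATA share was 58.8% over whole peaks, and the composite share was 0% in 100 bp windows (0 of 17, Wilson upper bound 18.4%). Merging lengthens peaks, and the other 3 change the bases searched or the distance allowed, so these shifts are in part built in, and the shares of all peaks moved the same way, to 19.4%, 71.4% and 5.50% in that order. The share of the 10 genes with a peak was 80.0% under each of its 6 alternatives, while that of all protein-coding genes ran from 16.3% to 34.3%.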

Other observations

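With 25 kb on each side, 5 further peaks came into the windows. Over their whole length 0 of the 5 held a GATA match, compared with 71.4% of all peaks, but 5 peaks are too few for a comparison. The 5 peaks lay at 3 of the 10 genes. Of the 2 added at TFR2, 1 was centred 24 bp from a TSS of PCOLCE (551 bp long) and 1 was 192 bp from a TSS of ACTL6B (814 bp long). Of the 2 at FTL, 1 (624 bp) was centred 18 bp from a TSS of BAX, which encodes an activator of apoptosis. The remaining FTL peak was nearest to DHDH, at 8313 bp. The peak added at TFRC was 246 bp long and lay 10428 bp from the nearest TSS of that gene. HMOX1 and IREB2 remained without a peak.

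Among the wider iron genes, BLVRB, which encodes biliverdin reductase B of red cells, had a single peak of 2636 bp on chromosome 19, longer than 99.5% of all peaks. It was singled out after its value was seen. Its midpoint was 142 bp downstream of the canonical TSS, and its 3 GATA matches lay outside the central 200 bp. At NCOA4, 1 of the 5 peaks had a central sequence that occurs 32 times in hg38, and at BLVRA 1 of the 3 had one that occurs 661 times. These were 2 of the 29 wider iron peaks (6.90%), compared with 10.7% of all peaks with a repeated centre. Among the 22 heme enzyme peaks it was 1 (4.55%), at ALAD, with a centre that occurs 317 times and a GATA match in the central 200 bp. Whether whole reads of these peaks also map elsewhere was not tested.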
